A study of Rattus norvegicus with 83 samples.

Results

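A set of 169 rat genes, out of 17483 in the count table, was described across 10 groups of libraries. The set was chosen from these same data: each gene averaged at least 30 CPM (counts scaled to a common total per library) in vehicle libraries labelled pup day 16 (PD16), and its mean in PD16 libraries of methimazole at 16 mg/kg lay at or under -1.5 on the log2 scale relative to vehicle, after adding 1 CPM to both means. In all, 182 genes met these limits, and 13 of them (Sox9, Jag1, Plagl1, Mcm4, Rrm2, Srebf2, Kdr, Pecam1, Mrc1, Jund, Hsph1, Gsr and Cpt1a) were left out of the set by name. The fall from PD16 vehicle to PD16 methimazole at 16 mg/kg is therefore how the genes were picked. Its values and count of calls below are a description and no test. The genes Cirbp, Kcnd2, Tob1 and Qrich1 were given as markers of the set. These 4 lie at the low end of the ratio that chose it, at -3.32, -3.34, -3.32 and -3.19 in that order. The median over the 169 genes was -2.22, so their falls are larger than is typical of the set. The levels of the genes at the lower methimazole dose, in both amitrole doses and at gestational day 21 (GD21) are what follows.

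Dams of the Sprague-Dawley strain were gavaged once a day from gestational day 7 with corn oil (vehicle), methimazole at 8 or 16 mg/kg body weight (MMI8, MMI16) or amitrole at 25 or 50 mg/kg (Ami25, Ami50), and tissue of their offspring was taken. GD21 was covered by 6 libraries in each group, PD16 by 10 in vehicle and in both methimazole groups, 11 in Ami25 and 12 in Ami50. The assay, BRB-seq, barcodes the polyadenylated RNA of each sample and sequences 3′ tags of the samples as a pool. Litters and animals are not named in the labels, so p-values measure the spread between these libraries, some of which may be littermates.

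Methimazole and amitrole both block thyroid peroxidase, the thyroid enzyme that builds thyroid hormone, and through the dam and the milk they lower the hormone available to the young. Thyroid hormone acts through nuclear receptors that switch target genes on or off, and its supply around birth sets the pace of maturation in many organs, testis and adrenal gland among them. The 169 genes form no single pathway: they include RNA-binding proteins such as Cirbp, which is known to rise in cold and stressed cells, the potassium channel subunit Kcnd2, the antiproliferative adaptor Tob1, which links mRNAs to the deadenylation machinery, and Qrich1, a DNA-binding factor known from the response to unfolded proteins.

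Several labels met values against them. Total counts ran from 495369 to 1627114 in the 30 GD21 libraries (median 963356) and from 202270 to 1186973 in the 53 PD16 libraries (median 492083). Adrenal cortex markers (8 genes, among them Cyp21a1 and Star) summed to between 10084 and 65336 CPM in every library, while 7 testis markers (Sox9 and Inha, which other tissues also use, set aside) had 97 counts among 57573311. The tissue label is testis, so the libraries are called here by stage and treatment alone. Embryonic globins took a median of 14.1%, 16.1% and 16.8% of globin counts in PD16 vehicle, MMI8 and MMI16 libraries, but 0.18% and 0.13% in PD16 Ami25 and Ami50 and 0.11% to 0.17% in the GD21 groups. Stage and treatment below are as labelled, and a treatment difference between PD16 amitrole and the other PD16 groups cannot be told apart from whatever sets the globin share. The liver gene Alb reached 200 CPM in 15 libraries, and 8 PD16 Ami50 libraries held less than 10 CPM of the Y-linked gene Eif2s3y.

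Promoter windows of Cirbp, Kcnd2, Tob1 and Qrich1 are printed so that a reader can see the sequence around their starts. The common fall of the 169 genes in PD16 MMI16 is by selection, and a shared promoter element was not tested. The windows are from RefSeq on the rat assembly GRCr8, 250 bases before to 50 bases after the annotated start, 5′ to 3′ on the gene's strand. Capitals mark matches, on either strand, to TATAAA (the TATA box), CCAAT (the element of NF-Y), GGGCGG (the GC box of Sp factors), TGACGTCA (the cyclic AMP element), CACGTG (the E-box), CCGGAAGT (the element of ETS factors) or TGACCT (a core element of nuclear receptors, those of thyroid hormone included). The Cirbp window lies at chr7:10189426-10189725 on the minus strand, Kcnd2 at chr4:50742235-50742534 on the plus strand, Tob1 at chr10:79659743-79660042 on the plus strand and Qrich1 at chr8:118095661-118095960 on the plus strand.
Cirbp: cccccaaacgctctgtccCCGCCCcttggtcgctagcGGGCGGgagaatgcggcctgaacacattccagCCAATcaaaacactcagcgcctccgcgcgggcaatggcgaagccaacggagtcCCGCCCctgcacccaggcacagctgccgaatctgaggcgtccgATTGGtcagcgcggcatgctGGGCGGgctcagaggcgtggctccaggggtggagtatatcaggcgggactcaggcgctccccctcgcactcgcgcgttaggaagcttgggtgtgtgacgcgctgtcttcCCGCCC
Kcnd2: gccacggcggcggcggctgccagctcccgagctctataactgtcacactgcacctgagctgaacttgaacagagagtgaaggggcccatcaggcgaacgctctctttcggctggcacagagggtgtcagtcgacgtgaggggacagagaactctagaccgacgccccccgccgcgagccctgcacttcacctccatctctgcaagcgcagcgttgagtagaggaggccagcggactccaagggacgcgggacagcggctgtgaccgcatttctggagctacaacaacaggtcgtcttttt
Tob1: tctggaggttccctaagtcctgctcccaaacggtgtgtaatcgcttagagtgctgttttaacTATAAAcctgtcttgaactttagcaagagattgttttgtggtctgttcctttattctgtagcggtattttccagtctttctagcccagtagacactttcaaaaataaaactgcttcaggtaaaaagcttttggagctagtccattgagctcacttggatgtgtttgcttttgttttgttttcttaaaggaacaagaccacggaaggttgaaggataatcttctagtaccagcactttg
Qrich1: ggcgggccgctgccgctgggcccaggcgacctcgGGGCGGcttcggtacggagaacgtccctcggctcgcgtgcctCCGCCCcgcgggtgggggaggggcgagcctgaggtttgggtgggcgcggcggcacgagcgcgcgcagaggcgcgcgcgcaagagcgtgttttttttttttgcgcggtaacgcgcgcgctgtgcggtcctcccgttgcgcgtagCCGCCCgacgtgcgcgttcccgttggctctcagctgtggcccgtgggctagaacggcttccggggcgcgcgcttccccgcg
The Cirbp window held 5 copies of the GC box and 2 of CCAAT, the Qrich1 window held 3 GC boxes, the Tob1 window held a TATAAA, and the Kcnd2 window held no match. GC content was 67.0% for Cirbp, 61.7% for Kcnd2, 40.0% for Tob1 and 74.3% for Qrich1.

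Windows were found for 139 of the 169 genes, and 3 of these were matched by an older symbol. The GC box was in 71.9% of them, against 34.9% of all 27457 windows and 64.9% of the 2707 windows of genes that reached 30 CPM in PD16 vehicle. CCAAT was in 46.8%, 42.2% of the windows of comparably expressed genes and 37.7% of all. TATAAA was in 7.91% of the set's windows and 7.46% of those of expressed genes, against 14.3% of all windows. TGACCT was in 8.63%, below the 15.7% of all windows and the 11.8% of expressed genes, and TGACGTCA was in 4.32%, against 1.91% and 3.66%. CACGTG (5.04%, 6.65% and 10.6%) and CCGGAAGT (5.76%, 4.01% and 12.6%) gave the shares in brackets for the set, for all windows and for expressed genes. For 5 of the 7 motifs the set lay closer to expressed genes than to all windows, and for CACGTG and CCGGAAGT it lay closer to all windows. No motif is contained in another, a match is no binding site, and median GC content was 64.3% in the set, 60.0% in expressed genes and 52.3% in all windows.

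The genes spanned a wide range of expression in PD16 vehicle libraries, from a mean of 30.2 CPM for Mtmr1 to 2588 CPM for Marcks, with a median of 186 CPM. Means reached 1000 CPM in 9 genes, lay between 100 and 1000 CPM in 110 and stayed below 100 CPM in 50, and 137 genes had at least 1 count in every one of the 83 libraries. RefSeq's annotation held 167 of the 169, of which 166 are protein-coding. These sit on 21 chromosomes, and no pair of them are next to each other among protein-coding genes. The genes just inside the limit were Rtn3 (-1.502 on the log2 scale, from 160 to 55.8 CPM), Macir (-1.51), Wnk1 (-1.53) and Chd7 (-1.53), besides a gene known only by an identifier. Just outside it lay Plec (-1.49, from 241 to 85.1 CPM), Ccnjl (-1.48), Ccdc43 (-1.45), Ptges3 (-1.45) and Zfp36l1 (-1.45). No gap in the ratios marks the edge of the set.

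Summed over the set, the 169 genes took 4.05% to 6.56% of all counts in PD16 vehicle libraries (median 5.53%), which is the level that chose them. In PD16 MMI8 they took 1.07% to 2.33% (median 1.61%), in MMI16 0.565% to 1.34% (median 1.11%), in Ami25 0.693% to 1.21% (median 0.834%) and in Ami50 0.600% to 0.915% (median 0.774%). No treated PD16 library reached the lowest vehicle library. At GD21 the share was 2.45% to 3.40% in vehicle, 2.61% to 4.02% in MMI8, 2.35% to 4.57% in MMI16, 2.75% to 4.70% in Ami25 and 2.72% to 5.57% in Ami50. Every GD21 library, treated or not, thus lay above every treated PD16 library, the closest being 2.35% against 2.33%. The amitrole libraries of PD16 and GD21 were far apart, at most 1.21% in the former and at least 2.72% in the latter.

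**Figure D1:**
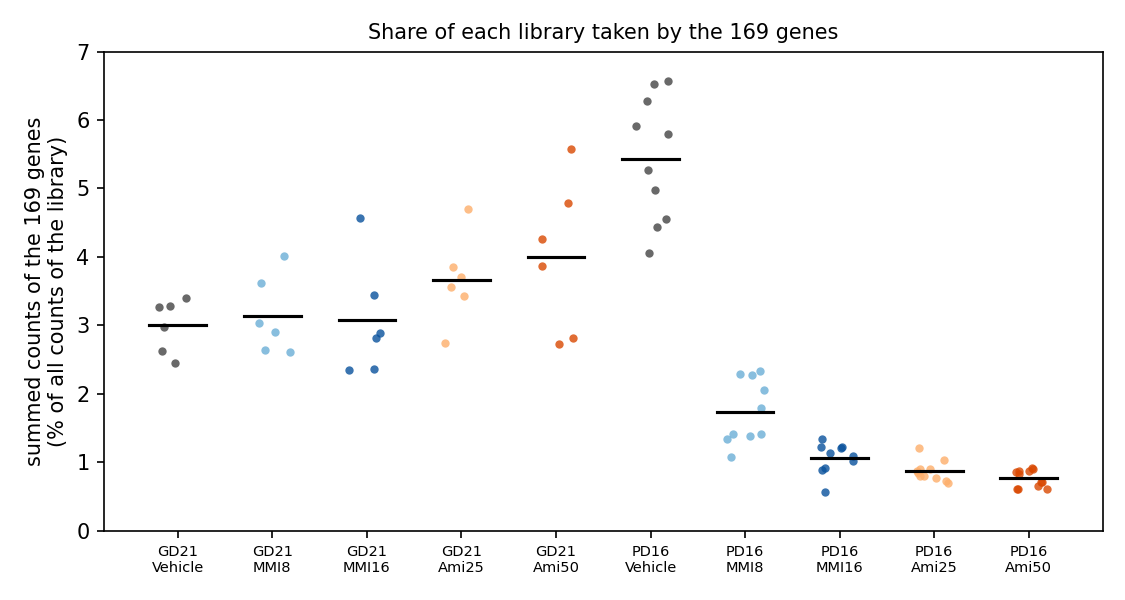
Share of all counts taken by the 169 genes in each of the 83 libraries (points, percent) by labelled stage and treatment, with the group mean as a bar. PD16 vehicle libraries sit between 4.05% and 6.56%, all other PD16 libraries at 2.33% or lower, and the GD21 libraries between 2.35% and 5.57%.

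The share also moved with depth inside groups. When each group was split at its median total, the shallower libraries had the higher mean share in 10 of 10 groups, by 1.22% to 0.893% in PD16 MMI16 and by 6.09% to 4.78% in PD16 vehicle, though by only 3.001% to 3.000% in GD21 vehicle. MMI16 library 9, the deepest at PD16 with 1186973 counts, had the lowest share of its group at 0.565%, and library 10, the shallowest with 202270 counts, had 1.22%. Between stages the order was the other way, since PD16 Ami50 totals (273753 to 937813) lay mostly below GD21 Ami50 totals (645295 to 1214081) while its shares were the lower ones. Within each of the 3 runs of library numbers in the titles (1-20, 21-40 and 41-90) the median log2 ratio of MMI16 to vehicle of the same run was -2.17, -2.06 and -2.45. The MMI8 ratios were -1.10, -1.73 and -1.81, the Ami25 ratios -2.46, -2.58 and -2.51, and the Ami50 ratios -2.75, -2.72 and -2.68.

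**Figure D2:**
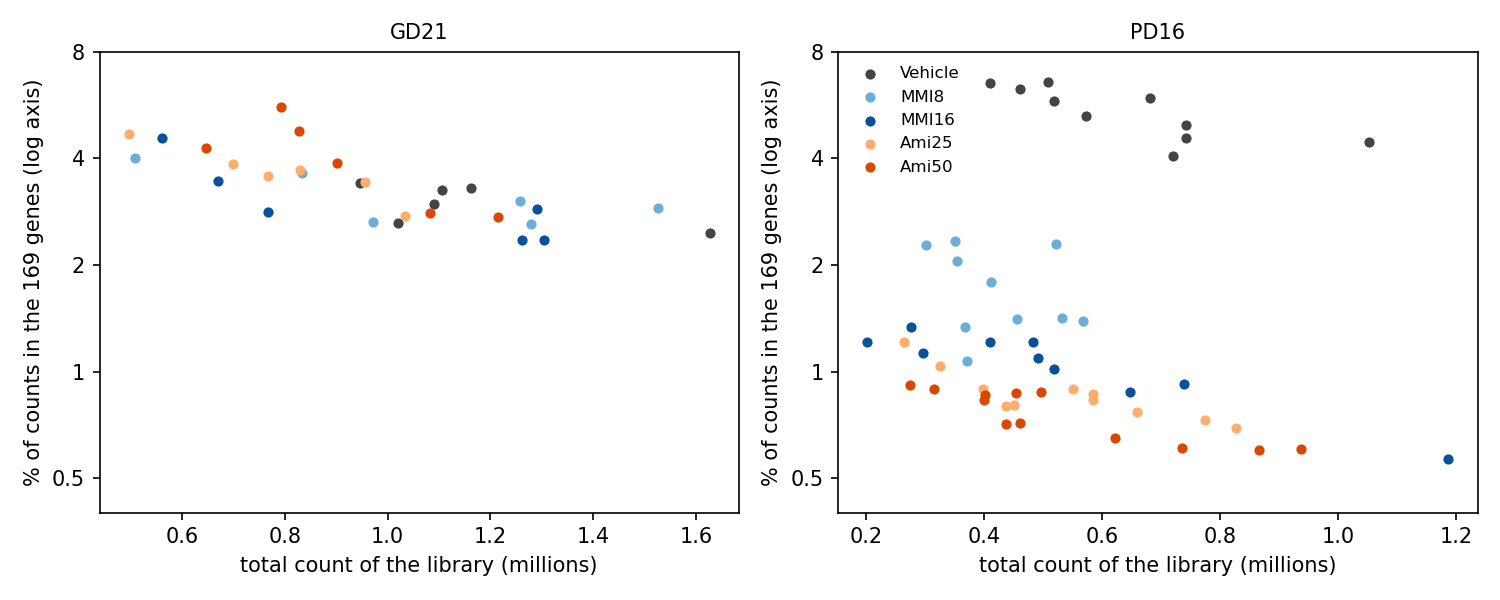
Share of counts in the 169 genes (percent, log axis) against library total (total count), for GD21 on the left and PD16 on the right, with 1 point per library coloured by treatment. Within most groups the shares are lower in the deeper libraries, and at PD16 the vehicle libraries stay above 4% at every depth.

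Markers of endothelial cells moved in the same direction. The summed level of 8 endothelial genes, all detected, was 577 to 863 CPM in PD16 vehicle, 315 to 485 CPM in MMI8, 280 to 455 CPM in MMI16, 226 to 417 CPM in Ami25, 218 to 380 CPM in Ami50 and 385 to 728 CPM over the GD21 groups. Kdr and Pecam1, 2 of the 8, themselves met the limits of the rule and were left out by name. Part of the fall of this sum in MMI16 is therefore by selection, and a sum without these 2 was not computed. The sum of 8 macrophage genes, all detected, was 119 to 153 CPM in PD16 vehicle, 40.8 to 107 CPM in MMI8 and 45.5 to 82.8 CPM in MMI16, but 94.2 to 265 CPM in Ami25 and 121 to 296 CPM in Ami50. Mrc1 of the macrophage list likewise met the limits and was left out by name. Only because of these omissions is no gene of the 169 on either list. The sum of 8 adrenal cortex genes moved the other way, with PD16 medians of 18339 CPM in vehicle, 22960 in MMI8, 22633 in MMI16, 43017 in Ami25 and 47532 in Ami50, and GD21 medians of 32830 to 37085 CPM. In whole-tissue RNA, fewer cells of a type and less RNA per cell cannot be told apart, and the part of these cell types in the fall was not tested.

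Cirbp had 228 to 975 CPM in PD16 vehicle (median 592), and its highest library in MMI8, MMI16 and Ami50 was 132, 77.5 and 78.1 CPM (medians 75.1, 67.7 and 62.6). In Ami25 it ran from 36.3 to 273 CPM with a median of 64.0, so that 1 library overlapped the vehicle range. At GD21 it lay between 223 and 865 CPM over the 5 groups, with medians of 278 in vehicle, 293 in MMI8, 317 in MMI16, 485 in Ami25 and 509 in Ami50. All GD21 libraries were therefore above all PD16 libraries of MMI8, MMI16 and Ami50. In edgeR's quasi-likelihood F test, with Benjamini-Hochberg adjustment over all genes tested, Cirbp was lower at PD16 than at GD21 within Ami50 (log2 fold change -3.31, SE 0.24, adjusted p = 5.58e-20), within Ami25 (-2.85, adjusted p = 1.58e-16) and within MMI8 (-2.16, adjusted p = 3.56e-11). Between PD16 treatments the Cirbp difference missed the threshold, at -0.40 (SE 0.25, adjusted p = 0.181) for Ami50 against MMI8.

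Kcnd2, which encodes the Kv4.2 subunit of fast-inactivating potassium channels in nerve and heart, ran from 108 to 313 CPM in PD16 vehicle (median 188). It fell to 13.5 to 53.2 CPM in MMI8 libraries, 5.41 to 44.5 in MMI16, 8.47 to 27.4 in Ami25 and 2.72 to 29.8 in Ami50, with medians of 31.3, 12.4, 18.9 and 12.5. GD21 libraries held 56.7 to 286 CPM, and even the lowest of them exceeded the highest treated PD16 library. The Kcnd2 difference between PD16 and GD21 was -3.99 (SE 0.30, edgeR adjusted p = 3.31e-19) within Ami50, -3.60 (adjusted p = 2.91e-17) within Ami25 and -2.03 (adjusted p = 2.69e-08) within MMI8. It was also lower in PD16 Ami50 than in PD16 MMI8 (-1.19, SE 0.31, adjusted p = 0.00106), with overlapping ranges. For Ami25 against MMI8 the value was -0.77 (adjusted p = 0.0257), and this call was lost in 3 alternatives (adjusted p from 0.0574 to 0.0724).

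Tob1 ran from 212 to 412 CPM in PD16 vehicle (median 266) and from 172 to 444 CPM over all GD21 libraries, ranges that overlap almost fully. Treated PD16 libraries held 32.3 to 117 CPM in MMI8, 3.37 to 65.0 in MMI16, 21.8 to 53.1 in Ami25 and 13.8 to 54.9 in Ami50, all below both. The vehicle means of Tob1 were 283 CPM at GD21 and 286 CPM at PD16. PD16 was lower than GD21 by -3.56 (SE 0.21, edgeR adjusted p = 6.95e-25) in Ami50, -3.13 (adjusted p = 2.61e-21) in Ami25 and -2.11 (adjusted p = 7.65e-14) in MMI8. Ami50 lay below MMI8 at PD16 (-1.04, SE 0.23, adjusted p = 0.00012).

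Qrich1 ran from 221 to 481 CPM in PD16 vehicle (median 374) and, unlike Tob1, was lower in GD21 vehicle, at 89.7 to 179 CPM (median 111). Its PD16 medians were 52.2 CPM in MMI8, 39.0 in MMI16, 31.0 in Ami25 and 28.6 in Ami50, with the highest treated library at 91.3 CPM. The GD21 medians were 163 in MMI8, 136 in MMI16, 217 in Ami25 and 295 in Ami50, and among all GD21 libraries only 3, at 82.0, 87.6 and 89.7 CPM, came as low as the highest PD16 MMI8 library. PD16 against GD21 gave -3.50 (SE 0.21, edgeR adjusted p = 9.29e-25) in Ami50, -2.83 (adjusted p = 3.59e-19) in Ami25 and -1.83 (adjusted p = 2.65e-11) in MMI8. Ami50 was below MMI8 at PD16 for Qrich1 by -0.89 (SE 0.19, adjusted p = 7.29e-05).

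**Figure D3:**
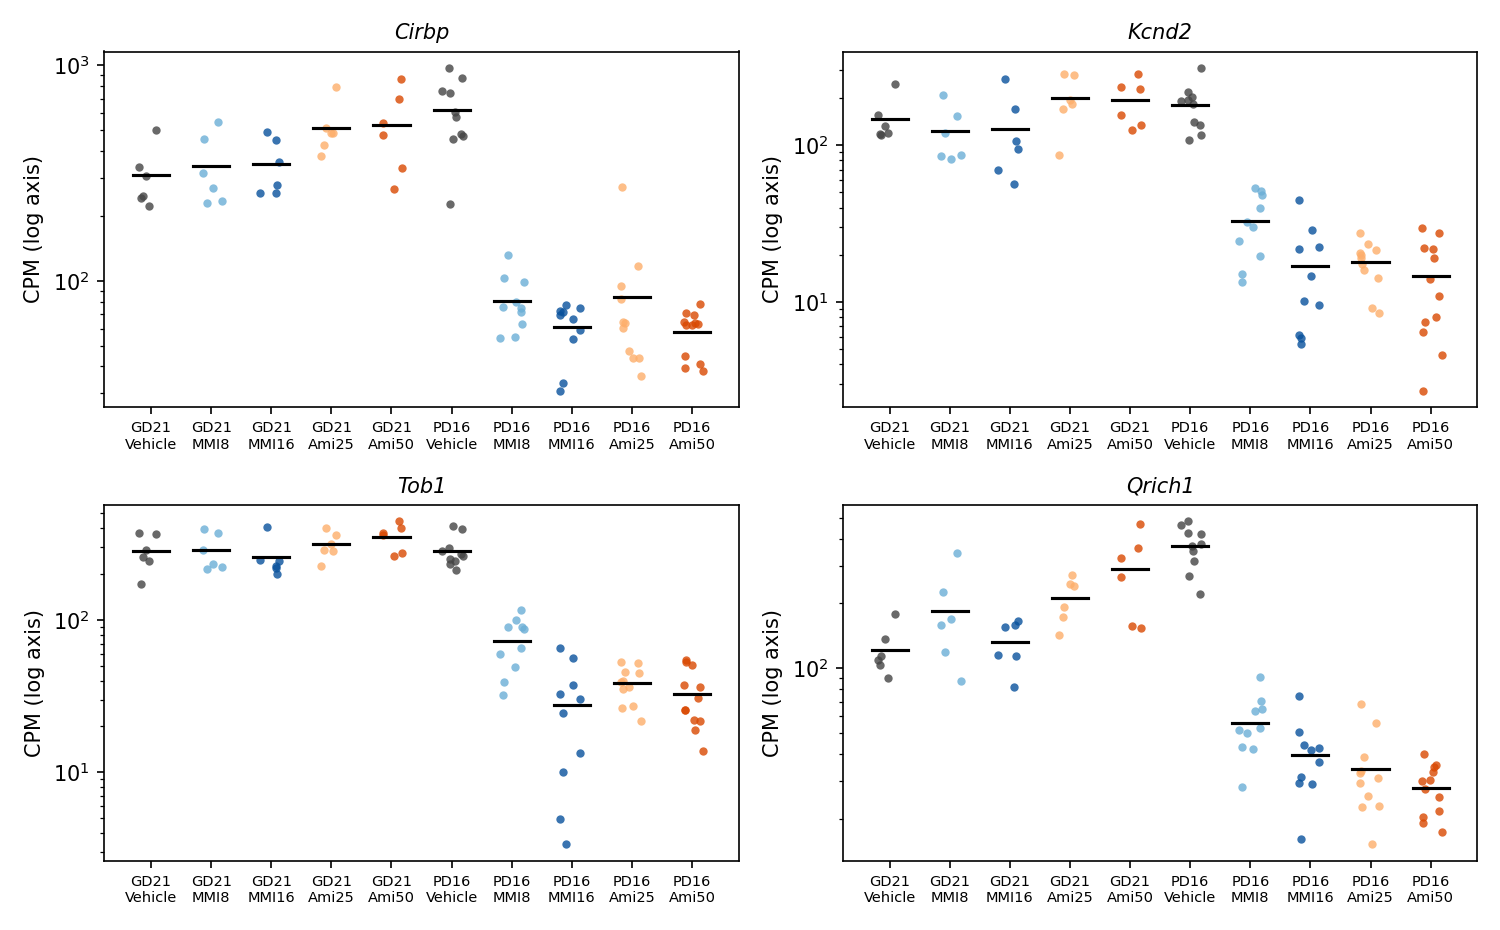
CPM of Cirbp, Kcnd2, Tob1 and Qrich1 (log axes) in each library by labelled stage and treatment, with bars at the group means. In all 4 panels the means of the treated PD16 groups lie below those of the GD21 groups. Libraries overlap between the stages for Cirbp (PD16 Ami25) and Qrich1 (PD16 MMI8). The Kcnd2 means are 181 CPM in PD16 vehicle, 14.5 CPM in PD16 Ami50 and 194 CPM in GD21 Ami50.

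Most of the distance between vehicle and MMI16 was already there at the lower methimazole dose. The median log2 ratio of group means over the 169 genes was -1.62 for MMI8 against vehicle (range -3.35 to -0.41, all 169 below 0) and -2.22 for MMI16 (range -3.34 to -1.502). The step from MMI8 to MMI16 had a median of -0.55, with 162 genes lower at the higher dose. In the 3265 genes of at least 30 CPM in PD16 vehicle the same medians were 0.05, 0.09 and 0.02. Both doses are set against libraries that chose the genes, so these values describe the set and support nothing. The remaining 7 genes, Abcc3, Dusp7, Id2, Lmo2, Vtcn1, Zfp518a and Zfp703, did not go lower, with means of 4.74 CPM in MMI8 and 5.94 CPM in MMI16 for Vtcn1 and of 22.0 and 27.0 CPM for Zfp703.

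Among the smallest MMI8 ratios to vehicle, besides Cirbp (-2.92) and Qrich1 (-2.70), were those of Vtcn1, an inhibitory ligand of T cells (-3.35), Cwf19l1, a splicing-related protein (-2.70), and the m6A reader Ythdf2 (-2.54). Vtcn1 went from 40.4 to 75.0 CPM in vehicle to at most 9.58 CPM in MMI8, without overlap. At the other end, Traf3, an adaptor of tumour necrosis factor receptors, had a ratio of -0.41, followed by the ferritinophagy receptor Ncoa4 (-0.57), the Wnt receptor Fzd6 (-0.66), the kinase Wnk1 (-0.68), Cnpy4 (-0.70) and the translocon subunit Ssr3 (-0.70). Traf3 had 55.1 to 199 CPM in vehicle, 21.5 to 130 in MMI8 and 2.53 to 44.8 in MMI16, so its MMI8 range overlapped vehicle and its MMI16 range did not. In edgeR 164 of the 167 tested genes were called lower in MMI8 than in vehicle and 71 lower in MMI16 than in MMI8, where 8.38% and 2.08% of all 4906 genes tested were called and 6.91% and 1.9% were lower, and both comparisons use libraries of the rule. For MMI16 against vehicle, the contrast of the rule itself, 166 were called lower, where 8.11% of all genes were called and 7.26% were lower. Calb2 was the exception. The genes were chosen for this fall, so the count of 166 was set by the rule and tests nothing. Mtmr1 and Sema4d were too low to be tested at PD16.

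In PD16 amitrole libraries most of the set lay at or below the MMI16 level. The median log2 ratio to vehicle was -2.57 for Ami25 (range -4.36 to -0.23) and -2.69 for Ami50 (range -4.69 to -0.30), against -0.14 and -0.17 over the 3265 expressed genes. Both amitrole means were below the MMI16 mean in 122 genes and above it in 22, and both were below the MMI8 mean in 159. For Ami50 alone, 143 genes were below the MMI16 mean and 26 above it (median -0.51). Of the 3265 expressed genes 67.3% were below it (median -0.22), so part of this was shared by other genes. Against MMI8, 162 genes were below in Ami50 (median -1.07), as were 64.2% of the expressed genes (median -0.21). edgeR called 166 of 167 genes lower than vehicle at each amitrole dose, where 55.4% of all genes were called and 27.5% were lower in Ami25, and 53.5% and 26.5% in Ami50, and Mapk13 was the exception both times. Vehicle libraries chose the set, so these counts are a description.

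**Figure D4:**
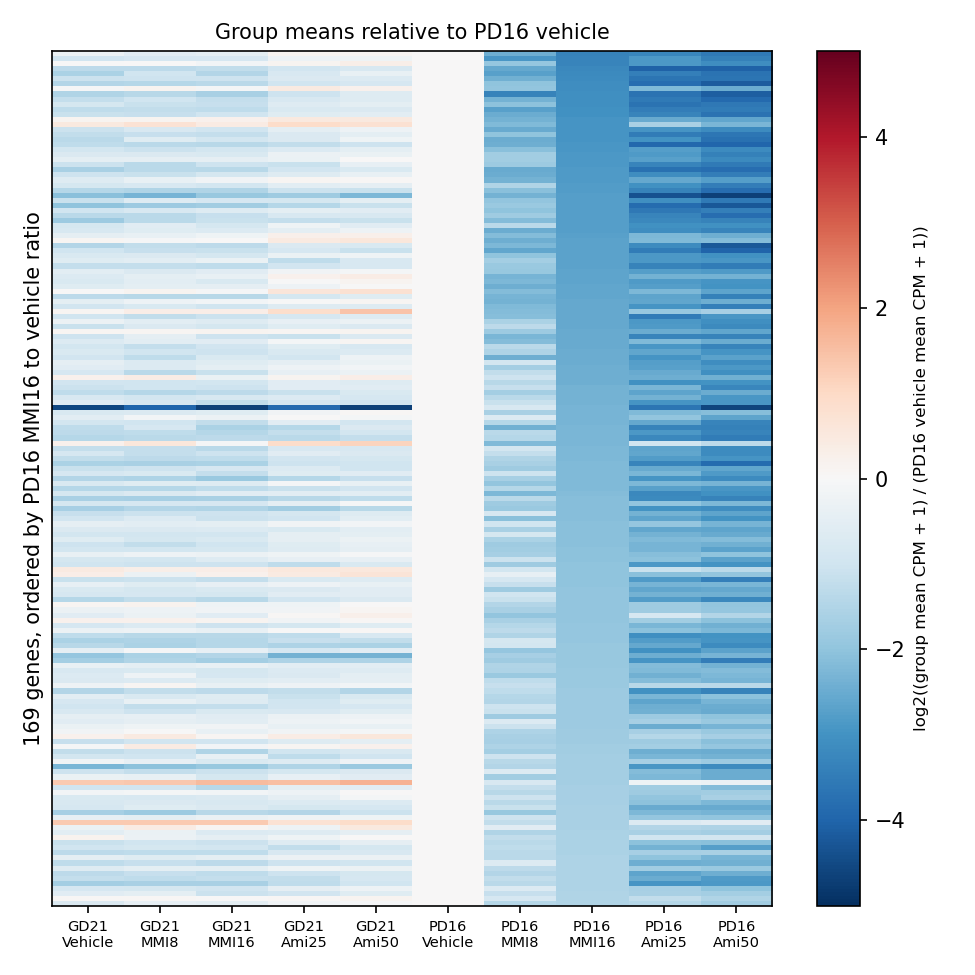
Group means of the 169 genes relative to PD16 vehicle (log2 after adding 1 CPM; blue lower, red higher), with genes as rows ordered by the PD16 MMI16 ratio and the 10 groups as columns; the PD16 vehicle column is 0 by construction. The 4 treated PD16 columns are blue nearly throughout, with medians of -1.62, -2.22, -2.57 and -2.69, and the GD21 columns are pale; the GD21 vehicle median is -0.86.

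The 2 amitrole doses at PD16 were not told apart for these genes. edgeR called 0 of the 167 genes in Ami50 against Ami25 (0% of all genes called), and DESeq2 called 0 of them as well. In edgeR 15 had an unadjusted p under 0.05, and the share of all genes at that cut was not computed. The median log2 fold change was -0.15, with 129 of 167 below 0, and the smallest adjusted p was 0.898. Fold changes of -0.38 (SE 0.24) for Cirbp, -0.41 (SE 0.32) for Kcnd2, -0.23 (SE 0.24) for Tob1 and -0.20 (SE 0.20) for Qrich1 leave room for small dose steps. The 8 PD16 libraries low in Eif2s3y are all on the Ami50 side of this contrast. Without them edgeR called 0 of 169 genes of the set and 11 of all 5806. The median of the set was then -0.255, and 26 had an unadjusted p under 0.05. The part of this imbalance was not tested.

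Compared with the lower methimazole dose, which took no part in choosing the set, most of the genes were lower in amitrole. Of 167 genes tested 123 were lower and 2 higher in Ami50 than in MMI8, where 47.8% of all genes were called and 23.2% were lower. For Ami25, with the same MMI8 libraries as reference, 120 were lower and 5 higher, where 48.6% were called and 24.2% were lower. The median log2 fold changes were -1.02 and -0.89 over the set and 0.01 and 0.02 over all genes tested. Marcks, a membrane and actin regulator and the most abundant gene of the set, had 1701 to 3407 CPM in PD16 vehicle, 415 to 1102 in MMI8, 140 to 556 in MMI16, 95.5 to 413 in Ami25 and 80.0 to 204 in Ami50. Its Ami50 range of 80.0 to 204 CPM lay wholly below its MMI8 range (log2 fold change -2.29, SE 0.18, edgeR adjusted p = 1.64e-15), and the value for Ami25 was -1.99 (adjusted p = 2.38e-13).

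Other large differences from MMI8 were those of the zinc finger gene Zfp280b (-2.56 in Ami50, adjusted p = 1.68e-09 in edgeR, and -1.99 in Ami25) and of the kinetochore gene Pmf1 (-2.38 in Ami50, SE 0.30, adjusted p = 6.47e-10). Zfp280b ran from 33.0 to 143 CPM in MMI8 and from 1.36 to 24.2 CPM in Ami50, and Pmf1 from 10.8 to 32.6 and from 0 to 6.86 CPM. B4galt6, which makes lactosylceramide, was lower in Ami25 by -1.95 (adjusted p = 7.33e-08). Calb2, the calcium-binding protein calretinin, had the largest values, -3.30 in Ami50 (SE 1.09, adjusted p = 0.0109) and -2.60 in Ami25 (adjusted p = 0.0317), and also the most uneven libraries. It ran from 2.44 to 507 CPM in PD16 vehicle, from 2.43 to 339 in MMI8, from 0 to 341 in MMI16 and from 0 to 39.2 in Ami50, so all groups overlapped. The Ami25 call was lost in 4 alternatives (adjusted p from 0.0538 to 0.0931), and the Ami50 call without the libraries low in Eif2s3y (adjusted p = 0.0973).

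A few genes went the other way. Gstt2, a glutathione transferase, was higher in Ami50 (0.99, SE 0.24, edgeR adjusted p = 0.000452) and in Ami25 (1.24, adjusted p = 1.79e-05) than in MMI8, with libraries at 85.4 to 197 CPM in Ami50, 117 to 424 CPM in Ami25 and 46.3 to 111 CPM in MMI8. Dtx3l, a ubiquitin ligase of interferon and DNA damage responses, was higher by 0.86 (adjusted p = 0.000634) in Ami50 and 0.75 (adjusted p = 0.00351) in Ami25. In Ami25 the bile acid and conjugate exporter Abcc3 (1.15, adjusted p = 0.00113), the acyl-CoA thioesterase Acot2 (0.63, adjusted p = 0.0229) and the stress kinase Mapk13 (0.71, adjusted p = 0.0334) were also higher. The Mapk13 call was lost in 3 alternatives (adjusted p from 0.0529 to 0.079), and reads of Acot2 and its close relative Acot3, also in the set, may be split between them. Mapk13 was also the gene nearest to PD16 vehicle in Ami50 (ratio -0.30), before Dtx3l (-0.57), the transcription factor Tfcp2 (-0.91), Gstt2 (-1.32), Gpt2 (-1.33), which makes glutamate and pyruvate, and Spidr (-1.36), a DNA repair scaffold. The lowest Ami50 ratios were those of the actin-bundling gene Fscn1 (-4.69), Calb2 (-4.59), Marcks (-4.23), the glycan-branching enzyme Gcnt1 (-4.22), the acetyltransferase Naa50 (-4.17) and Vtcn1 (-4.13).

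At GD21 no treatment moved the set past the threshold. edgeR called 0 of the 169 genes, and 0% of all 6236 genes tested, for MMI8, MMI16, Ami25 and Ami50 against vehicle. Its unadjusted p was under 0.05 in 7, 7, 36 and 50 of the 169. The share of all genes at that cut was not computed, so these counts have nothing to be read against. The median log2 fold changes were 0.04, -0.02, 0.25 and 0.38, against 0.01, 0.01, -0.01 and -0.01 over all genes, and 148 of the 169 lay above 0 in Ami50. DESeq2 called 0, 0 and 0 of the set for the first 3 treatments. For Ami50 it called 3 of the set, all higher, out of 4 genes called among 5872. The 3 were Cemip2, a cell surface hyaluronidase (1.35, DESeq2 adjusted p = 0.0133), Qrich1 (1.25, adjusted p = 0.014) and the reticulon Rtn3 (0.69, adjusted p = 0.0274). The edgeR adjusted p was 0.159 for each of these 3, with Qrich1 at 154 to 470 CPM in GD21 Ami50 and 89.7 to 179 CPM in GD21 vehicle, overlapping ranges. Between doses at GD21 edgeR and DESeq2 called 0 of the genes for MMI16 against MMI8 (14 at an unadjusted p under 0.05) and for Ami50 against Ami25 (5). With library total as a covariate the medians were -0.04, -0.19, -0.04 and 0.15, so the small positive shift of Ami25 turned and that of Ami50 shrank.

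GD21 vehicle libraries held a median log2 ratio of -0.86 to PD16 vehicle, with 152 genes lower and 17 higher at GD21 and extremes of -4.53 for Calb2 and 1.30 for Mapk13. Of the 3265 expressed genes 68.0% were lower at GD21 (median -0.25), so part of this was shared by other genes. In edgeR 119 genes were higher and 3 (Acot2, Dtx3l and Mapk13) lower at PD16 than at GD21 in vehicle, where 47% of all genes were called and 25.4% were higher, and PD16 vehicle libraries had chosen the set. In 132 genes of the set every GD21 group mean lay between PD16 Ami50 and PD16 vehicle. The rule chose genes high in PD16 vehicle, and the share of all genes with this order was not computed. The count of 132 is therefore a description with nothing to be read against.

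Among contrasts free of the rule, PD16 against GD21 within amitrole had the largest shares of the set called. In Ami50 167 of 169 genes were lower at PD16, where 7.87% of the 6287 genes tested were called (6.46% lower, 1.42% higher), with a median log2 fold change of -2.39 (quartiles -2.96 and -1.97) against 0.05 over all genes. These 167 genes made up 41.1% of all 406 genes called lower in that comparison. In Ami25 166 were lower, where 11.9% were called (6.71% lower, 5.23% higher), with a median of -2.04, and the 166 made up 39.3% of 422 lower calls. The Ami25 count over all genes dropped from 751 to 494 without the library farthest from its group and to 452 with log2 library total as a covariate, while 167 of the set were called each time. With that covariate the median of the set was -2.30 in Ami25 and -2.66 in Ami50. All PD16 Ami50 libraries lay below all GD21 Ami50 libraries in 141 genes of the set and in 5.94% of the 3265 expressed genes. The embryonic globin share was low in both Ami50 groups (medians 0.13% at PD16 and 0.16% at GD21), unlike the 14.1% of PD16 vehicle. The sum of 3 red cell genes had medians of 13128 CPM in PD16 Ami50 and 16321 in GD21 Ami50, against 3950 in PD16 vehicle. In both measures PD16 Ami50 was nearer to GD21 than to PD16 vehicle. The stage contrast within amitrole therefore rests on the labels, which were not tested. All GD21 libraries carry numbers in the run 41-90.

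Vtcn1 had the largest fall in this contrast, from 18.9 to 59.3 CPM in GD21 Ami50 to 0 to 9.51 CPM in PD16 Ami50 (-4.17, SE 0.39, edgeR adjusted p = 1.03e-16), ranges that did not overlap. It was followed by Kcnd2, by the matrix protein gene Ccn1 (-3.71, SE 0.32, adjusted p = 7.63e-17), with 45.3 to 126 CPM against 0 to 28.2 CPM, and by Gcnt1 (-3.66, SE 0.44, adjusted p = 1.25e-11), with 7.41 to 50.4 CPM against 0 to 4.34 CPM. In Ami25 the leading genes after Kcnd2 were Vkorc1l1, a vitamin K epoxide reductase (-3.34, adjusted p = 7.68e-20), the Mediator subunit Med26 (-3.27, adjusted p = 8.03e-20) and Ythdf2 (-3.20). Calb2 (0.14, SE 1.45, adjusted p = 0.975) and Podxl, a sialomucin of epithelium and endothelium (-0.21, SE 0.40, adjusted p = 0.836), missed the threshold in Ami50, and Zfp703 did so as well in Ami25 (-1.02, adjusted p = 0.0609). Podxl was at 9.30 to 19.3 CPM in GD21 Ami50 and 6.43 to 32.9 CPM in PD16 Ami50, well under its PD16 vehicle median of 92.0 CPM.

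**Figure D5:**
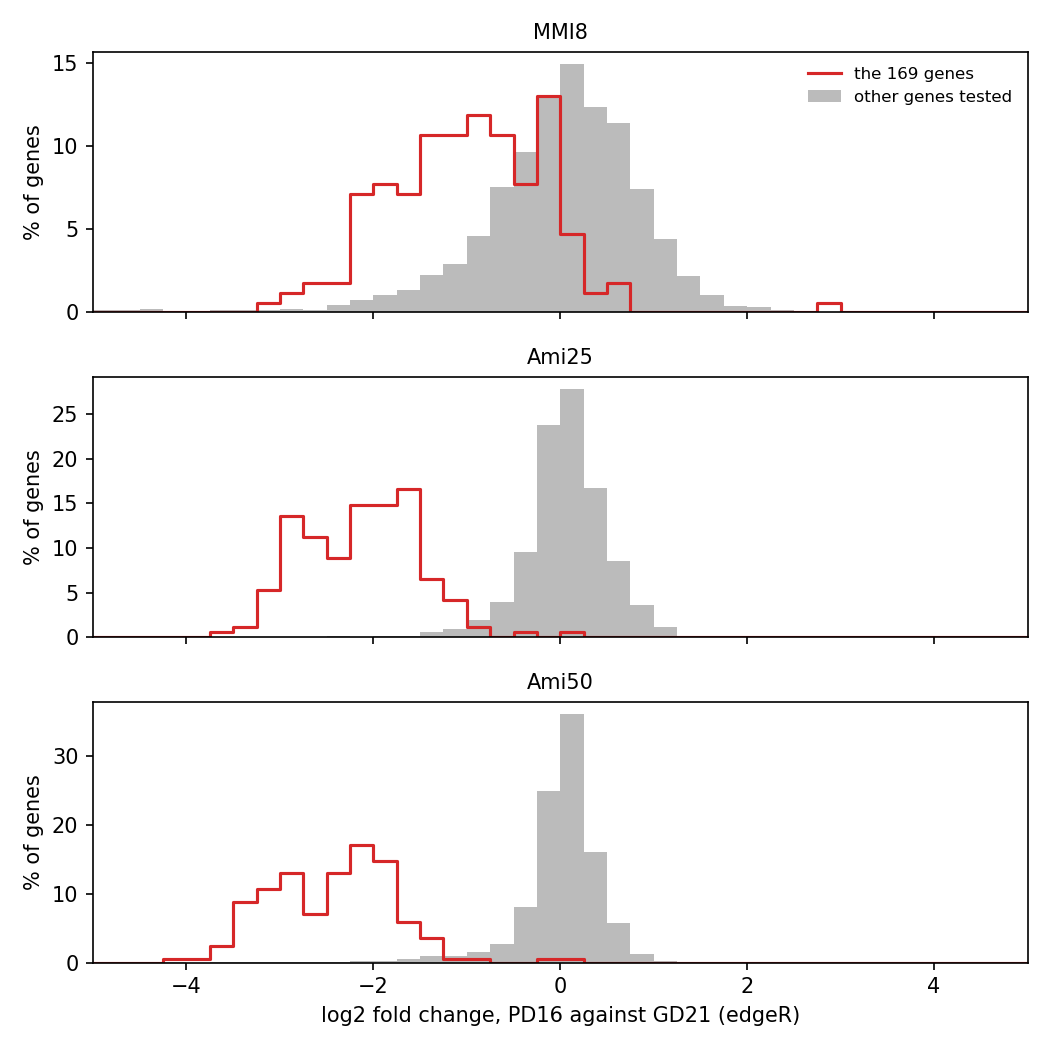
Distribution of edgeR log2 fold changes of PD16 against GD21 in MMI8, Ami25 and Ami50 (panels), as percent of genes per bin, for the 169 genes (red line) and the other genes tested (grey bars). The medians of the 169 genes are -0.99, -2.04 and -2.39, and the grey bars centre near 0 in each panel.

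Within MMI8 the same contrast was smaller for the set and larger for other genes. Of 169 genes 116 were lower and 2 higher at PD16, where 49.6% of all genes were called (23.1% lower, 26.5% higher), with a median of -0.99 that moved to -1.38 with library total as a covariate. The embryonic globin share differed between these groups (medians 16.1% and 0.11%), and its part in the result was not tested. The largest falls were those of Acot2 (-3.11, SE 0.24, edgeR adjusted p = 3.97e-18), Gstt2 (-2.89, adjusted p = 4.12e-16), Dtx3l (-2.77, adjusted p = 1.81e-17) and Cemip2 (-2.65, adjusted p = 7.77e-13). Acot2 had 216 to 440 CPM in GD21 MMI8 and 24.2 to 74.2 CPM in PD16 MMI8, without overlap. Calb2 (2.80, SE 0.97, adjusted p = 0.0131) and Pmf1 (0.65, SE 0.26, adjusted p = 0.0351) were higher at PD16, but the Pmf1 call was lost in 8 alternatives (adjusted p from 0.0563 to 0.223) and the Calb2 call when only the compared libraries were fitted (adjusted p = 0.051).

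The difference between the stages in the Ami50 to MMI8 contrast was tested as an interaction. The difference of Ami50 from MMI8 was lower at PD16 than at GD21 in 132 genes and higher in 1, where 30.1% of all genes were called and 16.6% were negative. The median was -1.46, against -0.06 over all genes. For Marcks, Cirbp and Qrich1 the order of the group means differed between the stages, and genes with such a change were not counted over the set. Group means of Ami50 and MMI8 were 1183 and 736 CPM at GD21 but 137 and 715 CPM at PD16 for Marcks. They were 531 and 341 but 58.1 and 80.8 CPM for Cirbp, and 289 and 184 but 27.8 and 55.8 CPM for Qrich1. The GD21 difference between Ami50 and MMI8 was not tested on its own. The largest values were those of Zfp280b (-3.10, SE 0.47, edgeR adjusted p = 1.95e-07), Marcks (-3.06, SE 0.32, adjusted p = 2.95e-12), Ppp1r15b, which directs the phosphatase that restarts translation (-2.98, adjusted p = 1.15e-08), and Ahsa2, a cochaperone homologue (-2.87, adjusted p = 3.73e-09). Marcks went from 483 to 1033 CPM in GD21 MMI8 and 554 to 2115 CPM in GD21 Ami50 to the lower levels given above for PD16. Dtx3l was the positive exception (1.18, SE 0.32, adjusted p = 0.00263). The Cirbp interaction (-1.14, adjusted p = 0.0115) was lost without the libraries that held Alb (-0.77, adjusted p = 0.2).

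The genes were sorted by hand into roles, which are described without a test. Since 167 of the 169 genes were lower at PD16 than at GD21 in Ami50 (6.46% of all genes) and 123 of 167 lower in Ami50 than in MMI8 (23.2%), a count near these shares is nothing particular to a role. RNA-binding, decay and translation genes had the lowest median of the roles in the contrast of stages within Ami50. All 14 were lower at PD16 than at GD21 in Ami50, with a median log2 fold change of -3.12, and 12 were lower in Ami50 than in MMI8. Ythdf2, which reads m6A marks and recruits the decay machinery, had 824 to 1674 CPM in PD16 vehicle, 102 to 355 in MMI8, 50.5 to 228 in MMI16 and 43.4 to 108 in Ami50, against 444 to 996 CPM in GD21 Ami50. Wtap, a subunit of the m6A writer, went from 675 to 1143 CPM in PD16 vehicle to 43.7 to 101 CPM in PD16 Ami50, with 338 to 766 CPM in GD21 Ami50. Neither gene overlapped between PD16 and GD21 in Ami50, and the log2 fold changes were -3.42 for Ythdf2 and -3.12 for Wtap. Dhx36, a helicase that unwinds G-quadruplexes (-3.12), and Elavl1, the mRNA-stabilising protein HuR (-2.46), followed the same course. Elavl1 differed from them in MMI8, where its 113 to 395 CPM overlapped its GD21 MMI8 range of 219 to 363 CPM (-0.20 for PD16 against GD21, SE 0.18, edgeR adjusted p = 0.359).

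The 9 splicing and RNA processing genes were all lower at PD16 than at GD21 in Ami50 (median -2.11). Cwf19l1 had 362 to 734 CPM in PD16 vehicle and 21.9 to 76.1 CPM in PD16 Ami50 (-2.97 against GD21 Ami50, SE 0.21, edgeR adjusted p = 1.07e-20). Poldip3, an exon junction factor that links splicing to translation, kept 269 to 851 CPM in MMI8, near its GD21 MMI8 range of 313 to 763 CPM (0.16, SE 0.22, adjusted p = 0.562), and dropped to 59.8 to 194 CPM in Ami50. Poldip3 was thus lower in Ami50 than in MMI8 by -2.20 (SE 0.19, adjusted p = 2.62e-14).

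Transcription and chromatin genes were the largest role, with 32 members, all lower at PD16 than at GD21 in Ami50 (median -2.22) and 24 lower in Ami50 than in MMI8. Rbbp4, a histone-binding subunit of several chromatin complexes, had 1308 to 2501 CPM in PD16 vehicle, 264 to 454 in MMI8, 155 to 336 in MMI16, 112 to 197 in Ami25 and 74.7 to 200 in Ami50. Its GD21 libraries held 444 to 1592 CPM over the groups, and no PD16 Ami50 library reached them (-3.21, SE 0.16, edgeR adjusted p = 2.73e-29). The sorting into this role is loose, since it also holds the acetyltransferase Naa50 and the ferritinophagy receptor Ncoa4. Naa50 (955 to 2205 CPM in PD16 vehicle, 58.8 to 123 in PD16 Ami50 and 457 to 1246 in GD21 Ami50) and Adnp, a neuroprotective chromatin factor (761 to 1347, 50.3 to 146 and 393 to 822 CPM), showed the same order of groups.

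Among 15 ubiquitin pathway genes all were lower at PD16 than at GD21 in Ami50 (median -2.41), and 11 were lower and 1, Dtx3l, higher in Ami50 than in MMI8. Dtx3l had its highest level at GD21, 104 to 280 CPM outside Ami50, against 41.1 to 140 CPM in PD16 vehicle. Traf3, which carries a ubiquitin ligase domain, had 83.4 to 277 CPM in GD21 Ami50 and 11.3 to 48.0 in PD16 Ami50 (-2.84, SE 0.29, edgeR adjusted p = 1.53e-13) but did not differ detectably between stages in MMI8 (-0.25, SE 0.28, adjusted p = 0.481).

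Of 15 signalling genes all were lower at PD16 than at GD21 in Ami50 (median -2.90). The phosphatase Ptp4a2 had 1020 to 1934 CPM in PD16 vehicle, 250 to 1200 in MMI8, 99.4 to 361 in MMI16, 122 to 280 in Ami25 and 112 to 244 in Ami50, so that MMI8 bridged the vehicle and MMI16 ranges. Its GD21 libraries held 655 to 1320 CPM, and Ptp4a2 in MMI8 was not detectably lower at PD16 (-0.35, SE 0.18, edgeR adjusted p = 0.107). Mapk13, a p38 kinase, was higher at GD21 than in PD16 vehicle, with 119 to 342 CPM against 24.2 to 119 CPM, ranges that only just touch.

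The 13 cytoskeleton and adhesion genes, of which 12 were lower at PD16 than at GD21 in Ami50 (median -2.12), included Marcks, Fscn1 and Arpc4. Fscn1 had 437 to 1320 CPM in PD16 vehicle, 70.0 to 240 in MMI8, 77.1 to 208 in MMI16, 24.4 to 56.8 in Ami25 and 17.4 to 47.8 in Ami50, and 29.0 to 364 CPM in GD21 Ami50, where the lowest library overlapped PD16. Arpc4, a subunit of the actin-nucleating Arp2/3 complex, varied widely in PD16 vehicle itself, from 514 to 1899 CPM, and held 133 to 199 CPM in PD16 Ami50.

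The 20 genes of mitochondria, lipids and metabolism were all lower at PD16 than at GD21 in Ami50 (median -2.61), and 12 were lower and 1 higher in Ami50 than in MMI8. Vdac1, the main channel of the outer mitochondrial membrane, had narrow ranges, 1693 to 2762 CPM in PD16 vehicle, 485 to 907 in MMI8, 409 to 642 in MMI16, 433 to 566 in Ami25 and 485 to 619 in Ami50. Its GD21 libraries held 1479 to 2514 CPM, so the treated PD16 groups overlapped one another and none reached GD21 or vehicle. Abcd3, a peroxisomal fatty acid transporter, had 646 to 1384 CPM in PD16 vehicle, 140 to 532 in MMI8 and 46.2 to 175 in Ami50, against 441 to 1217 CPM in GD21 Ami50 (-3.23, SE 0.24, edgeR adjusted p = 5.58e-20).

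The remaining roles gave the same direction. All 17 genes of the endoplasmic reticulum, Golgi and glycans (median -2.12), all 6 of DNA replication and repair (median -1.89) and 14 of 15 channels, receptors and surface proteins (median -2.56) were lower at PD16 than at GD21 in Ami50. In MMI8 8 of the 17, 5 of the 6 and 10 of the 15 were lower. Ssr3 had 326 to 810 CPM in PD16 MMI8 and 302 to 562 CPM in GD21 MMI8 (0.38, SE 0.21, edgeR adjusted p = 0.128) but 105 to 231 CPM in PD16 Ami50, against 328 to 841 CPM in GD21 Ami50 (-1.89, SE 0.20, adjusted p = 1.28e-12).

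Families around the 4 genes are described by their counts, to be read against the 6.46% of all genes called lower between stages in Ami50. Of 17 cold-inducible, SR and CLK splicing genes 15 were tested between stages in Ami50, and 2 were lower, Cirbp and Srsf2 (-0.97, adjusted p = 1.99e-06 in edgeR), with a median of -0.10. In contrasts with MMI8 more of these splicing genes were lower: 7 of 14 in PD16 Ami50 (median -0.47, 23.2% of all genes lower), 6 of 14 in PD16 Ami25 (median -0.45, 24.2%) and 7 of 15 in the interaction (median -0.58, 16.6%), with 0 higher in each. Between stages within MMI8, 2 of 15 were lower and 6 higher at PD16, with a median of 0.30. Of all genes 23.1% were lower and 26.5% higher there. Of 20 TOB, BTG and CCR4-NOT deadenylation genes 12 were tested, 2 were lower (Tob1 and Cnot6l) and 1, Cnot1, was higher, with a median of 0.02. Of 18 integrated stress response genes 13 were tested and Qrich1 was the 1 called, with a median of 0.17. Against MMI8 more of them were called: 3 of 12 lower and 1 higher in PD16 Ami50 (23.2% and 24.7% of all genes). In PD16 Ami25 3 were lower and 3 higher (24.2% and 24.4%), and in the interaction 4 of 13 were lower and 1 higher (16.6% and 13.6%). Kcnd2 was the single testable gene of 9 Kv4 channel and partner genes. Of 5 MAP kinase feedback genes tested 4 were lower: Dusp6, Dusp7 and Dusp10, which are in the set and so were chosen for low levels, and Spry2 (-2.20, SE 0.30, adjusted p = 1.3e-09), which is outside it. Of 8 TRAF and NF-kappaB genes tested, Traf3 and Nfkbia were lower, both of them in the set as well.

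Dusp6, the phosphatase that shuts off ERK, had 455 to 624 CPM in PD16 vehicle, 91.6 to 173 in MMI8, 74.1 to 157 in MMI16, 60.2 to 212 in Ami25 and 69.3 to 191 in Ami50, and 183 to 621 CPM at GD21. Its treated PD16 groups overlapped one another, and Dusp6 in Ami50 was not detectably lower than in MMI8 (-0.20, SE 0.14, edgeR adjusted p = 0.251). Nfkbia, the inhibitor of NF-kappaB, had 28.5 to 111 CPM over the treated PD16 groups, 148 to 271 CPM in PD16 vehicle and 165 to 359 CPM at GD21. The treated PD16 groups lay below both, and GD21 overlapped PD16 vehicle.

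Rbm3 and Ptp4a1, relatives outside the set with enough counts, did not show the low PD16 levels of the set in methimazole. For Rbm3 in MMI16 the rule fixed this, since a gene of its vehicle level with such a fall would have met the limits. Other relatives are both in the set, such as Acot2 and Acot3 (log2 ratios of MMI16 to vehicle of -2.96 and -2.48). The same holds for Dusp6 and Dusp7 (-2.20 and -2.30). The values of relatives are therefore a description. Rbm3, the other cold-inducible RNA-binding protein, averaged 377 CPM in PD16 vehicle, 381 in MMI8, 387 in MMI16, 213 in Ami25 and 221 in Ami50, so its log2 ratio to vehicle was 0.04 in MMI16 and -0.77 in Ami50, where Cirbp had -3.32 and -3.39. Ptp4a1 averaged 24.0, 27.1 and 28.1 CPM in PD16 vehicle, MMI16 and Ami50, ratios of 0.17 and 0.22, where Ptp4a2 had -2.46 and -3.11. Tob2, Kcnd3, Traf2 and Dusp16 averaged 4.50, 3.23, 6.57 and 0.242 CPM in PD16 vehicle, too low to be read against Tob1, Kcnd2, Traf3 and Dusp10.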

How the data were processed

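The authors deposited 1 table of raw counts, by gene symbol, for 83 libraries. The submitters' processing notes name BWA 0.7.4.4 and the build rn6; for the counter, the annotation, strand and molecular identifiers, nothing is given in the sources used here. Genes that overlap on opposite strands, and near-identical copies, may therefore share counts. The members, gene lists and roles were chosen with earlier results of these data known.

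CPM and group means were computed from the counts, with SDs and ranges over libraries. Tests used edgeR 4.0.16 in R 4.3.3: filterByExpr with a minimum count of 10, TMM factors, robust quasi-likelihood F tests, 5 groups of a stage in 1 fit or all 10 groups for stage contrasts, and Benjamini-Hochberg adjustment over all genes tested, called under 0.05. The filter left 4906 genes at PD16, 6236 at GD21 and 6287 over both. Contrasts that hold PD16 vehicle or MMI16 libraries share them with the rule and are described without p-values. At the PD16 median total of 492083 a gene of a few CPM rests on single counts, so low levels are imprecise. Library pairs of 1 group gave a chi-square per degree of freedom of at least 1.565, so none was a copy. The fits were tested on simulated data.

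Genes named were Cirbp, Kcnd2, Tob1 and Qrich1, the 12 most abundant, the 6 extremes (1 is not reported here) at each end of the MMI8 and Ami50 ratios, the 4 largest calls in each direction per contrast free of the rule, up to 3 per related list and their relatives; Elavl1, Dhx36, Podxl, Zfp703, Spry2, Srsf2, Cnot1, Cnot6l and the members not falling with dose were named after their values were seen. Alternatives were DESeq2 1.42.0, its size factors, no filter, a mean of 10 CPM, only compared libraries, the library number run, and fits without low, farthest, Alb-positive or Eif2s3y-low libraries; log2 library total and edgeR's legacy fit were added after seeing the data. Promoter windows come from RefSeq (GRCr8), another build than the counts.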

Additional observations from a re-analysis of the deposited data

Results flagged for a closer look

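In the median log2 ratio to PD16 vehicle over the 169 genes, PD16 MMI16 library 9 lay far below the others of its group, at -3.19 against -2.58 for the next library. It is the deepest PD16 library (1186973 counts), and the part of depth was not tested. Single high libraries stood apart for Cirbp in GD21 Ami25 (library 51, 793 CPM, the next at 512), for Kcnd2 in GD21 vehicle (library 42, 244 CPM, the next at 156) and for Tob1 in GD21 MMI16 (library 48, 407 CPM, the next at 247). Libraries 51, 42 and 48 are the shallowest of their groups. In all, 48 sets of libraries were examined in this way, and chance alone sets apart about 1 in 20. The contrast of Ami50 with MMI8 differed between the stages by edgeR's interaction test in 133 of the 169 genes, with log2 differences of -1.14 for Cirbp, -1.96 for Kcnd2, -1.45 for Tob1 and -1.67 for Qrich1.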

How the results depend on the processing

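No paired analysis was possible because the groups share no library number. The count of members called stayed within 1.5 times the reported count in every contrast and alternative, except that DESeq2 called 3 members, all higher, in GD21 Ami50 against vehicle, where edgeR called 0. A fold limit of -2 left 106 members instead of 169; other limits, averages and scalings gave 144 to 201. Over all genes, the number called moved by more than 1.5 times for PD16 MMI8 against vehicle with library total as a covariate (693 against 411), for PD16 against GD21 in Ami25 without the farthest libraries (494) or with library total (452) against 751, and for PD16 Ami50 against Ami25 (1 without a filter, 1 at a mean of 10 CPM and 11 without libraries low in Eif2s3y, none of them members, against 0). DESeq2 called 4 genes in all for GD21 Ami50 against vehicle, against 0. No called value changed sign; of the medians without calls, those of GD21 MMI8 and Ami25 against vehicle went from 0.04 and 0.25 to -0.04 and -0.04 with library total as a covariate, and those of GD21 MMI16 against vehicle and GD21 Ami50 against Ami25 from -0.02 and 0.14 to 0.01 and -0.06 without libraries holding Alb. The causes were not tested. At PD16 the shallow libraries limit genes under about 20 CPM.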
